A study of Mus musculus with 2 samples.

Results

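The 10 genes described here are the metallothioneins Mt1 and Mt2 and the acute-phase genes Saa3, Lcn2, Hp, Serpina3n, Serpina3g, Ptx3, Lbp and Lrg1. They are 10 of the 27998 genes in the count tables, and all 10 were found in both libraries. The genes were chosen by name, with the levels they show in these libraries already known, so their levels by cell type and by mouse are given as a description with no test. The data are single-cell RNA-seq of the non-myocyte cells of the ventricles of 2 mice with no treatment named, with 1 library per mouse. Both mice were C57BL/6 wild type animals of 10 to 12 weeks, so there is no second genotype, treatment or age group. The hearts were perfused to free the cells, atria and myocytes were discarded, red cells were lysed and live cells were sorted, so the shares of cells below are those of this preparation.

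Acute-phase proteins are secreted proteins whose blood level changes with infection or injury, and most of them are made by the liver under interleukin-6, interleukin-1 and glucocorticoid hormones. Many other cell types, fibroblasts and vessel walls among them, can make some of these proteins locally. Metallothioneins are small cysteine-rich proteins inside the cell that bind zinc and copper. Their genes are switched on by the zinc-sensing factor MTF1, which binds metal response elements, and also by glucocorticoids and inflammatory cytokines.

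The sequence before the gene start is shown for the 3 genes whose RefSeq promoter window (250 bases before to 50 after the start, build GRCm38.p6) held a motif of interest, so that the reader can see the letters behind a match. The motifs were the metal response element TGCACNC or TGCGCNC, the STAT motif TTCNNNGAA, which is bound by STAT3 downstream of interleukin-6, and the kappaB motif, searched on both strands in the 250 bases before the start. Capitals mark the matches. Mt2 is shown from chr8:94172368-94172617 on the plus strand, Mt1 from chr8:94179049-94179078 on the plus strand (the 30 bases from 40 to 11 before the start of 1 of its transcripts, which lies inside the gene's span) and Serpina3g from chr12:104236047-104236146 on the plus strand.
Mt2: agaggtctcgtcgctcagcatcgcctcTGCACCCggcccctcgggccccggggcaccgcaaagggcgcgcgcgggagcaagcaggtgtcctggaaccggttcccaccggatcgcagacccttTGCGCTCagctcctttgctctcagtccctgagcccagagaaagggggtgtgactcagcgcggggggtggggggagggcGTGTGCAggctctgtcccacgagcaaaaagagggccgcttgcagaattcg
Mt1: aaggggcggtcccgctgTGCACACtggcgc
Serpina3g: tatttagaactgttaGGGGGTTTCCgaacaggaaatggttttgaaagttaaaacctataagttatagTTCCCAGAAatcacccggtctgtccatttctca

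Mt2 held 3 metal response element matches, at 223 to 217, 128 to 122 and 50 to 44 bases before the start, the last on the minus strand. The stretch of Mt1 held 1 such match, at 23 to 17 bases before that start. Serpina3g held 1 kappaB match at 85 to 76 bases and 1 STAT match at 33 to 25 bases before its start. Matches of these lengths are common: 21.4% of the 32851 promoter windows held a metal response element, 7.02% a STAT motif and 5.00% a kappaB motif. A promoter entry existed for 8 of the 10 genes, and Saa3, Lcn2, Serpina3n, Ptx3 and Lrg1 had no match to the 3 motifs. Mt1 (chromosome 8, 94178883 to 94180327) and Mt2 (chromosome 8, 94172618 to 94173567) lie 5316 bases apart, and Serpina3g (chromosome 12, 104236147 to 104241939) lies 164707 bases from Serpina3n (chromosome 12, 104406646 to 104414334). The other genes are at chromosome 7, 46711998 to 46719615 (Saa3), chromosome 2, 32384637 to 32387739 (Lcn2), chromosome 8, 109575128 to 109579172 (Hp), chromosome 3, 66219887 to 66225806 (Ptx3), chromosome 2, 158306493 to 158332852 (Lbp) and chromosome 17, 56119678 to 56121946 (Lrg1). Mt1 and Mt2, the Serpina3 genes and the Saa genes have close copies, and reads of one copy may have been counted for another.

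Each value below is a count of UMIs, molecular tags that mark 1 captured RNA molecule each. Mouse 1 gave 21355383 UMIs over 7732 cell barcodes and mouse 2 gave 15174548 over 6367, and 65 barcodes occurred in both libraries. After removal of poor cells and called doublets, 6608 and 5687 cells remained, with medians of 2542.5 and 2194 UMIs. Cell types were set by gates on a few marker genes, and 201 and 130 cells that passed more than 1 gate were set aside. In mouse 1 and mouse 2 the gates held 1856 and 1303 fibroblasts (at least 5 UMIs of Dcn), 926 and 1269 endothelial cells (at least 2 over Pecam1, Cdh5 and Egfl7), 63 and 42 mural cells (at least 4 over Rgs5, Kcnj8 and Vtn), 2991 and 2361 macrophages (at least 15 over C1qa, C1qb and C1qc) and 72 and 2 neutrophils (at least 50 over S100a8 and S100a9). The 7 fibroblast markers, the gate gene among them, summed to 52496 and 66403 CPM (UMIs of a gene per 1000000 UMIs of the gate) in the fibroblast gate and to at most 521 CPM in the endothelial and macrophage gates. Albumin (Alb), transthyretin (Ttr) and Apoc3, defining genes of liver cells, had 0 UMIs in the 4 gates checked (fibroblast, endothelium, macrophage and neutrophil), and Apoa1 had 1 UMI, in fibroblasts, in each mouse.

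Among the gates other than neutrophils, 6 of the 10 genes had their highest level in fibroblasts in both mice: Mt2, Saa3, Hp, Serpina3n, Ptx3 and Lbp. Cells in no gate were left out of this order. Another 3 were highest in endothelium in both mice: Lcn2, Serpina3g and Lrg1. Mt1 was highest in fibroblasts in mouse 1 and in macrophages in mouse 2. The share of all genes with their highest level in each gate was not counted, so these counts describe the 10 genes only. Neutrophils, where mouse 2 had only 2 cells, exceeded every other gate for Lcn2, Hp and Lrg1. Mural cells held UMIs of Mt1 in both mice, and of Mt2 and Serpina3g in mouse 1 alone, and 0 UMIs of the other 7 genes. In this small gate 3 UMIs correspond to 33.3 and 53.7 CPM, so 0 UMIs do not show that a gene was absent. All levels are CPM of the summed cells of a gate in 1 mouse, and intervals are exact 95% intervals that cover counting error only.

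**Figure D1:**
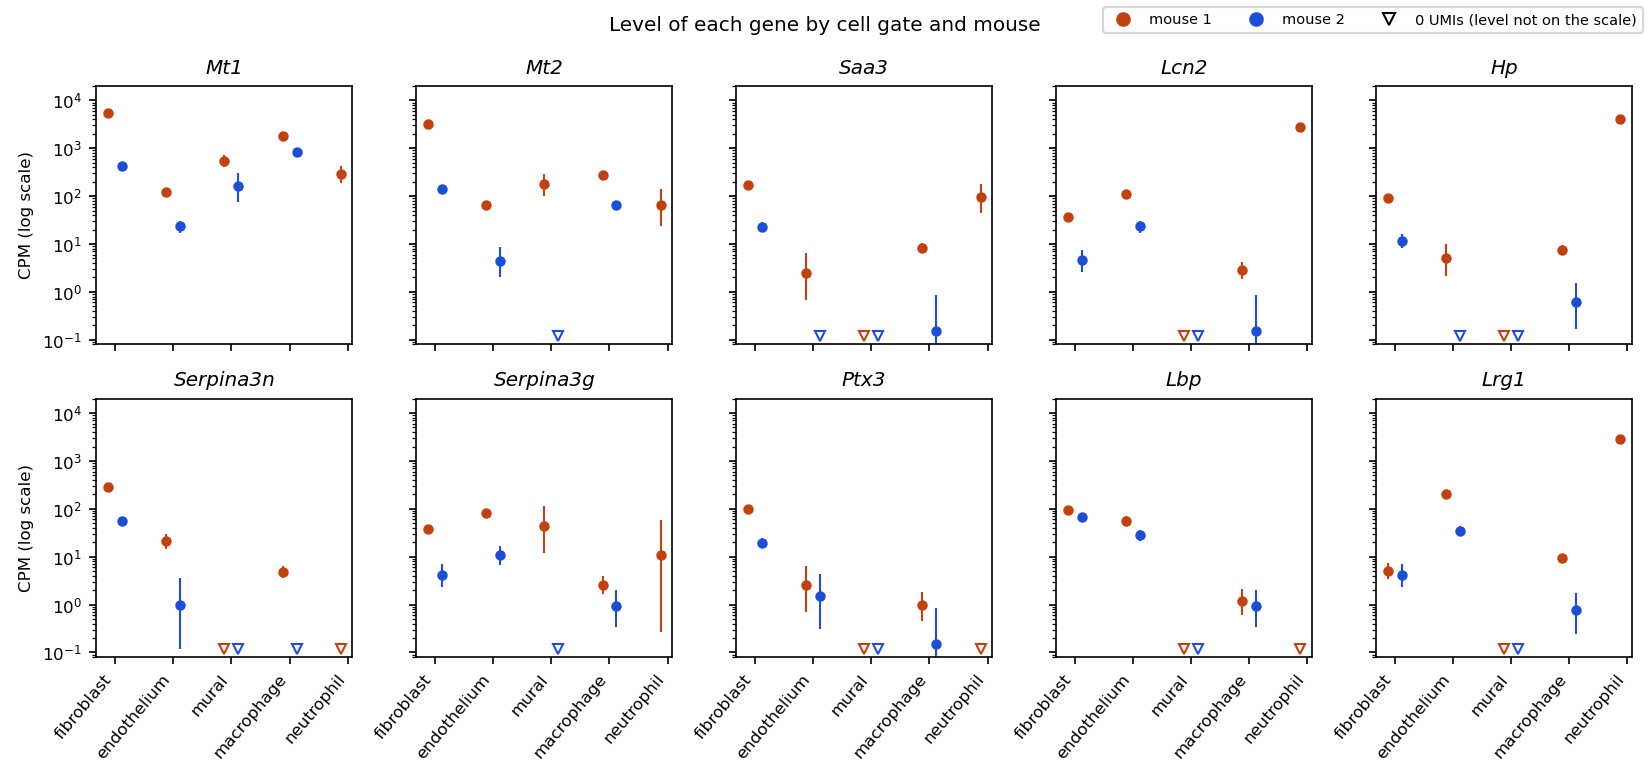
The level of each of the 10 genes (CPM, log scale) in 5 cell gates, with mouse 1 in orange and mouse 2 in blue. Points are the summed cells of a gate in 1 mouse, bars are exact 95% Poisson intervals, triangles mark gates with 0 UMIs, and the 2 neutrophils of mouse 2 are not drawn. Fibroblasts lead for Mt2, Saa3, Hp, Serpina3n, Ptx3 and Lbp among the other gates, and the points of mouse 1 lie above those of mouse 2 in fibroblasts for all 10 genes, with overlapping intervals for Lrg1.

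Mt1 was counted in all 5 gates of mouse 1. It stood at 5386 CPM in fibroblasts of mouse 1 (28408 UMIs) and 419.6 CPM in mouse 2 (1385 UMIs). In macrophages it stood at 1788 and 855 CPM, in mural cells at 543 and 161 CPM and in endothelium at 123 and 23.3 CPM (249 CPM in mouse 1 with cells of several gates kept). The order of fibroblasts and macrophages therefore differed between the mice: fibroblasts were 3.01-fold higher in mouse 1 (interval 2.96 to 3.07) and at 0.491 of the macrophage level in mouse 2 (0.462 to 0.521). Fibroblasts exceeded endothelium 43.9-fold and 18.0-fold. A UMI of Mt1 was found in 96.1% and 49.0% of fibroblasts, 94.0% and 80.2% of macrophages, and 17.8% and 3.39% of endothelial cells. With each cell thinned to 1000 UMIs, the shares were 89.0% and 28.8% of fibroblasts and 75.4% and 52.7% of macrophages. The medians of all UMIs per cell were 2753.5 and 2471 in fibroblasts, 2844 and 2616 in macrophages and 1462.5 and 1410 in endothelium. Free RNA in the droplets can give any cell a UMI, and the endothelial share bounds what it gave to that gate.

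Mt2 followed the same cells but leaned further toward fibroblasts. Its level was 3285 and 142 CPM in fibroblasts, 274 and 65.8 CPM in macrophages and 63.9 and 4.46 CPM in endothelium. Fibroblasts exceeded macrophages 12.0-fold in mouse 1 and 2.15-fold in mouse 2. Mt1 had 1.64 UMIs for each UMI of Mt2 in fibroblasts of mouse 1 (1.61 to 1.67) and 6.53 in macrophages (6.26 to 6.82). In mouse 2 the same ratios were 2.96 (2.66 to 3.29) and 13.0 (11.8 to 14.4). The macrophage ratio was thus above the fibroblast ratio in each mouse, and both ratios were higher in mouse 2. In endothelium the ratio was 1.92 (1.5 to 2.47) in mouse 1 and 5.22 (2.53 to 12.1) in mouse 2, the latter from 47 and 9 UMIs. One endothelial cell held 24 of the 101 Mt2 UMIs of mouse 1, and without it the ratio was 2.40 (1.83 to 3.18).

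Both metallothioneins were spread over most fibroblasts of mouse 1 rather than held by a few. At 1000 UMIs per cell, the median fibroblast of mouse 1 had 4 UMIs of Mt1 and the highest had 71, while in mouse 2 the median was 0 and the highest 14. The Pearson correlation of the log counts of Mt1 and Mt2 over fibroblasts was 0.61 in mouse 1 (1843 cells) and 0.34 in mouse 2 (1263 cells), and over macrophages it was 0.29 and 0.16. Over endothelial cells it was 0.0095 and 0.072. Cells of a correlation share a library, so these values carry no p. Among 4312 genes compared, the gene most like Mt1 over fibroblasts in both mice was Mt2, followed by the monocyte-attracting chemokine genes Ccl7 (0.176 and 0.144) and Ccl2 (0.12 and 0.206). For Mt2 the next after Mt1 were again Ccl7 (0.225 and 0.204) and Ccl2 (0.176 and 0.344). For Serpina3n the closest gene was Ifitm3 (0.062 and 0.061), and for Lbp it was Sirpa (0.061 and 0.068), values too weak to describe a likeness.

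Fibroblasts divide here into a Pi16-high class (at least 2 UMIs of Pi16, a marker of fibroblasts of the outer vessel wall), with 1054 and 558 cells, and 802 and 745 others. Mt1 stood at 5065 against 5909 CPM in mouse 1 and 409 against 429.6 CPM in mouse 2, ratios of 0.857 (0.837 to 0.878) and 0.952 (0.856 to 1.06), the latter 1.00 without the highest cell. Serpina3g was lower in Pi16-high cells in both mice, at 23.6 against 59.8 CPM and 0.620 against 7.70 CPM. That is 0.394 of the other fibroblasts in mouse 1 (0.292 to 0.529), and a single UMI in mouse 2. Lbp was higher in Pi16-high cells in both mice, at 101 against 78.3 CPM and 78.1 against 56.9 CPM, or 1.29-fold (1.07 to 1.58) and 1.37-fold (1.04 to 1.81). For Saa3, Lcn2 and Ptx3 the direction in mouse 2 was set by 1 cell each. The Saa3 ratio was 0.428 (0.373 to 0.490) in mouse 1 and 3.31 (1.92 to 5.98) in mouse 2, and without the highest cell the latter was 0.0582 (0.0014 to 0.369), from 1 UMI against 18. The Lcn2 ratio was 0.455 (0.338 to 0.610) in mouse 1 and 2.09 (0.652 to 7.80) in mouse 2, where it was 0.419 (0.0399 to 2.56) without the highest cell. The Ptx3 ratio was 1.19 (0.989 to 1.44) in mouse 1 and 0.499 (0.282 to 0.858) in mouse 2, where it was 1.37 (0.681 to 2.81) without the highest cell. Without those cells each of the 3 ratios lay on the same side of 1 as in mouse 1, with intervals that include 1 for Lcn2 and Ptx3. The same removal in mouse 1 gave 0.477 (0.415 to 0.548) for Saa3 and 0.499 (0.369 to 0.673) for Lcn2. For Ptx3 it gave 1.03 (0.852 to 1.25), so Ptx3 had no clear direction in either mouse.

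The level of Mt1 on the 2 sides of a gate's threshold was compared first. In mouse 1, 11 cells with 3 or 4 UMIs of Dcn, just outside the fibroblast gate, held 2585 CPM of Mt1, and 17 cells with 5 or 6, just inside, held 3286 CPM. For macrophages, 32 cells just outside (8 to 14 UMIs of the C1q genes) held 1397 CPM and 60 just inside (15 to 21) held 1569 CPM. Endothelium showed the opposite order: 166 cells with 1 UMI of its gate genes held 278 CPM and 197 cells with 2 held 118 CPM. Genes with few UMIs differed more across a threshold in mouse 1: Saa3 had 0 UMIs just outside the fibroblast gate and 9 just inside. Hp had 7 UMIs just outside the macrophage gate and 0 just inside, and 14 and 2 at the endothelial gate.

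Serpina3n and Serpina3g are serine protease inhibitors of 1 gene cluster, and they parted by cell type. Serpina3n stood at 292 and 54.8 CPM in fibroblasts (1541 and 181 UMIs), at 20.9 and 0.991 CPM in endothelium, and at 4.88 CPM in macrophages of mouse 1 and 0 UMIs in mouse 2. It was present in 45.2% and 10.9% of fibroblasts, against 1.47% of macrophages of mouse 1, where the median depth was close to that of fibroblasts. Fibroblasts exceeded endothelium 14.0-fold in mouse 1 (9.92 to 20.4) and 55.3-fold in mouse 2 (15.1 to 460.4, from 2 endothelial UMIs). They exceeded macrophages 59.8-fold in mouse 1 (44.5 to 82.4) and at least 120.3-fold in mouse 2, taking 3 UMIs over the gate as the floor. Serpina3g was instead highest in endothelium, at 82.9 and 10.9 CPM, with 37.3 and 4.24 CPM in fibroblasts and 2.60 and 0.912 CPM in macrophages. Endothelium exceeded fibroblasts 2.22-fold (1.77 to 2.78) and 2.57-fold (1.26 to 5.43). In mouse 2 a single cell held 13 of the 22 endothelial UMIs of Serpina3g. Cells in no gate held more of it than endothelium in both mice, at 97.4 and 52.9 CPM.

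Saa3, an inflammation-induced serum amyloid A that tissues outside the liver make, and Ptx3, a secreted pentraxin that binds microbes and matrix, were fibroblast genes held by few cells. Saa3 stood at 169 and 22.7 CPM in fibroblasts, 8.25 and 0.152 CPM in macrophages, and 2.53 CPM and 0 UMIs in endothelium. Cells in no gate held 89.3 CPM and 0 UMIs of it, and the neutrophils of mouse 1 held 96.0 CPM, 9 UMIs in 1 cell. The 889 fibroblast UMIs of Saa3 in mouse 1 came from 74 of 1856 fibroblasts (3.99%), and the 4 highest cells held 55, 55, 54 and 50. In mouse 2 its 75 UMIs came from 4 of 1303 fibroblasts, with 56, 15, 3 and 1. A set of 12 cells held 50% of the Saa3 UMIs of mouse 1, and 1 cell held 74.7% of those of mouse 2. Of 5 genes that mark the mesothelium, the cell layer that covers the heart, the 74 cells had 0 UMIs of Msln, Upk3b, Lrrn4 and Wt1 and 1 UMI of Krt19.

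Ptx3 stood at 98.0 and 19.7 CPM in fibroblasts, against at most 2.53 CPM in endothelium and at most 0.976 CPM in macrophages. It was found in 173 and 21 fibroblasts, and 20 cells held 50% of its UMIs in mouse 1. One cell held 43.1% of its UMIs in mouse 2. Fibroblasts exceeded endothelium 38.7-fold (15.0 to 142.7) and 13.2-fold (4.34 to 65.9).

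Hp encodes haptoglobin, which binds free haemoglobin, and had the same skewed form in fibroblasts. It stood at 90.8 and 11.8 CPM there (479 and 39 UMIs), with 5.06 CPM and 0 UMIs in endothelium and 7.59 and 0.608 CPM in macrophages. In cells of no gate it stood at 314 and 3.47 CPM, above the fibroblast level in mouse 1 and below it in mouse 2. Its UMIs came from 84 and 15 fibroblasts, and 11 cells held 50% of those of mouse 1. Fibroblasts exceeded macrophages 12.0-fold (9.29 to 15.6) and 19.4-fold (7.01 to 74.9). Compared with Mt1, for which 322 fibroblasts held 50% of the UMIs in mouse 1, the UMIs of Saa3, Hp and Ptx3 were concentrated in few cells.

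**Figure D2:**
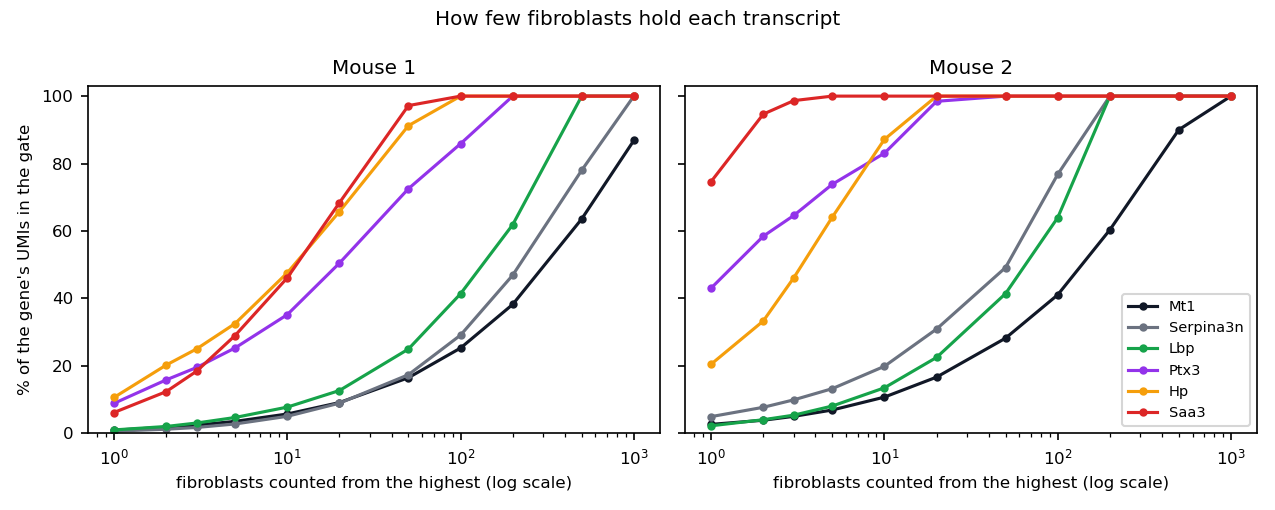
Percent of the fibroblast UMIs of 6 of the genes (y axis) held by the given number of cells, counted from the cell with most UMIs (x axis, log scale), in each mouse. The curves of Saa3, Hp and Ptx3 reach 50% within 20 cells in mouse 1, while that of Mt1 needs 322.

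Neutrophils, which store haptoglobin, lipocalin 2 and the glycoprotein encoded by Lrg1, gave the highest levels of those genes. In mouse 1 the 72 neutrophils held 4075 CPM of Hp, 2774 CPM of Lcn2 and 2881 CPM of Lrg1, and 97.2%, 83.3% and 90.3% of them had a UMI of each. The 2 neutrophils of mouse 2 held 3, 8 and 6 UMIs. A list of 7 neutrophil markers was therefore counted in the other gates: it summed to 110 and 3.64 CPM in fibroblasts, 126 and 6.44 CPM in endothelium and 134 and 39.4 CPM in macrophages, against 294050 CPM in the neutrophils of mouse 1. For each 100 UMIs of those markers, mouse 1 held 1.39 UMIs of Hp in neutrophils and 82.9 in fibroblasts. The corresponding counts of Lcn2 were 0.943 in neutrophils, 33.7 in fibroblasts and 90 in endothelium. Those of Lrg1 were 0.980 in neutrophils, 164 in endothelium and 4.67 in fibroblasts. Hp had 4.02 in endothelium, and the macrophage counts were 5.67 for Hp, 2.11 for Lcn2 and 6.88 for Lrg1. The part of neutrophil RNA in the levels of the other gates was not tested.

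Lcn2 encodes lipocalin 2, which binds bacterial iron carriers, and outside neutrophils it was an endothelial gene. It stood at 113 and 23.3 CPM in endothelium (179 and 47 UMIs), 37.0 and 4.54 CPM in fibroblasts and 2.82 and 0.152 CPM in macrophages. Endothelium exceeded fibroblasts 3.06-fold (2.49 to 3.77) and 5.12-fold (2.82 to 9.87). Within endothelium, Lcn2 stood at 603 and 83.2 CPM in the 97 and 89 cells with at least 2 UMIs over Nr2f2 and Vwf, genes of veins and large vessels, and at 49.3 and 17.8 CPM in the rest. This is 12.2-fold (8.96 to 16.8) and 4.66-fold (2.31 to 8.96). A UMI was found in 27.8% and 5.62% of the Nr2f2/Vwf cells, and in 4.46% and 1.19% of the rest. Of other vein genes, Selp had a UMI in 19.6% and 1.12% of the Nr2f2/Vwf cells and Ackr1 in 5.15% and 1.12%. The gate genes alone thus do not show that these cells were venous in both mice. At 1000 UMIs per cell, Lcn2 was found in 5.14% and 1.29% of all endothelial cells and in 0.201% and 0.0432% of macrophages. The macrophage share bounds what free RNA gave to macrophages only, and its part in the endothelial share was not tested.

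Lrg1, which encodes a leucine-rich glycoprotein that modulates TGF-beta signalling in endothelium, had the steepest difference of this kind in mouse 1. It stood at 206 and 34.2 CPM over all endothelium, against 5.12 and 4.24 CPM in fibroblasts. In Nr2f2/Vwf cells it stood at 1249.8 and 149 CPM, and in the rest at 70.1 and 23.8 CPM, or 17.8-fold (14.0 to 22.8) and 6.25-fold (3.66 to 10.4). A UMI was found in 47.4% and 12.4% of Nr2f2/Vwf cells and in 4.58% and 1.53% of the others. Lbp, the carrier of bacterial lipopolysaccharide to CD14, was a gene of fibroblasts (92.5 and 67.3 CPM) that reached 274 and 137 CPM in Nr2f2/Vwf cells, against 28.6 and 18.4 CPM in the rest of the endothelium. This is 9.58-fold (6.20 to 14.9) and 7.44-fold (4.18 to 13.0). Serpina3g was 8.02-fold higher in Nr2f2/Vwf cells in mouse 1 (5.61 to 11.5) and 29.3-fold in mouse 2 (10.9 to 91.5), the latter from 16 UMIs, 13 of them in 1 cell. Mt1 did not show this pattern, with 121 CPM in Nr2f2/Vwf cells and 123 CPM in the rest in mouse 1.

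The Npr3/Cytl1 cells (at least 2 UMIs over Npr3 and Cytl1, genes of the endocardium that lines the chambers) numbered 40 in each mouse, and 33 and 34 of them were Nr2f2/Vwf cells as well. Lbp stood at 299 and 158 CPM in them. Splitting the Nr2f2/Vwf cells showed where Lcn2 and Lrg1 lay. The 64 and 55 Nr2f2/Vwf cells outside the Npr3/Cytl1 gate held 794 and 138 CPM of Lcn2, with a UMI in 40.6% and 9.09% of them. The 33 and 34 cells in both gates held 163 CPM and 0 UMIs of Lcn2. That 163 CPM came from 9 UMIs, with a UMI in 3.03% of the 33 cells. Lrg1 stood at 1494 and 217 CPM in the cells with Nr2f2/Vwf alone, with a UMI in 54.7% and 16.4% of them, and at 688 and 44.8 CPM in the cells of both gates. Lbp stood at 244 and 109 CPM in the cells with Nr2f2/Vwf alone and at 344 and 179 CPM in those of both gates. Lbp was thus high in both kinds of cell, and Lcn2 mostly in those outside the Npr3/Cytl1 gate.

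**Figure D3:**
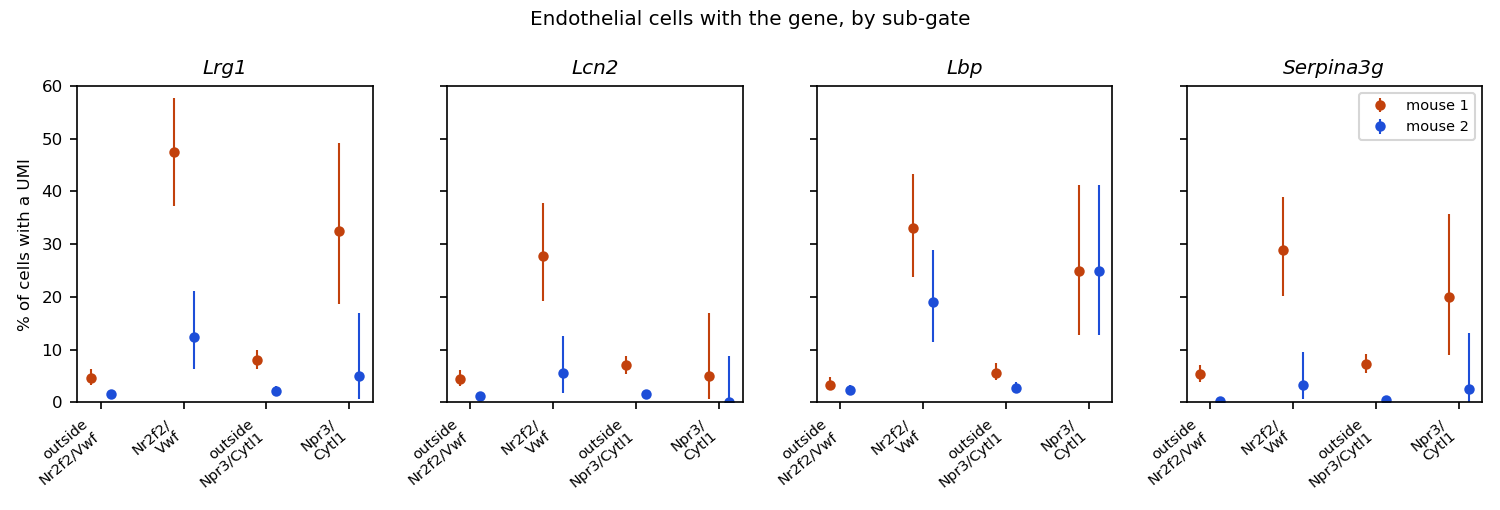
Percent of endothelial cells with a UMI of Lrg1, Lcn2, Lbp and Serpina3g inside and outside the Nr2f2/Vwf and Npr3/Cytl1 gates, with mouse 1 in orange, mouse 2 in blue and exact 95% binomial intervals as bars. For each gene the share in Nr2f2/Vwf cells lies above the share outside in both mice, for example 47.4% against 4.58% for Lrg1 in mouse 1.

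To see whether the genes met in the same cells, each cell was thinned to 1000 UMIs and the number of cells with both genes of a pair was set beside the product of the 2 shares. Pairs needed at least 20 cells with each gene. In fibroblasts of mouse 1, 33 of 36 pairs stood above the product, with a median ratio of 1.12. Some of these ratios lay close to 1, such as 1.002 for Mt2 with Lbp. The share of pairs of all genes above the product was not counted, so the count of pairs does not set these genes apart. Saa3 and Ptx3 met in 13 cells, where the product gave 2.70 (4.81-fold), and Saa3 and Lcn2 in 7, where it gave 1.55 (4.52-fold). With 2000 UMIs per cell these ratios were 2.83 and 2.60. Serpina3g and Ptx3 met in 9 cells against 3.04 (2.96-fold), and Saa3 and Hp in 5 against 1.82 (2.74-fold). Lcn2 and Serpina3g stood below the product (0.574). Mt1 and Mt2 met in 1325 cells against 1269.7, a ratio of 1.04 that has little room to rise because most fibroblasts held both. In mouse 2, 4 of 6 pairs stood above the product, and Mt1 and Mt2 met in 65 cells against 29.7 (2.19-fold).

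The 74 fibroblasts of mouse 1 with Saa3 held more of other genes of the group as well. Ptx3 stood at 418 CPM in them against 83.3 CPM in fibroblasts without Saa3, Hp at 375 against 77.7 CPM, Lcn2 at 125 against 32.9 CPM and Serpina3n at 552 against 280.4 CPM. Mt1 stood at 8122 against 5260 CPM. The median depths were 2952.5 and 2744 UMIs.

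In endothelium of mouse 1, 11 of 15 pairs stood above the product. Lcn2 and Lbp met in 17 cells against 1.90 (8.93-fold), Lbp and Lrg1 in 21 against 2.88 (7.30-fold), and Lcn2 and Lrg1 in 25 against 3.50 (7.15-fold). In mouse 2, 2 of 3 pairs stood above it, and Lbp and Lrg1 met in 4 cells against 0.508 (7.88-fold). Within the 97 Nr2f2/Vwf cells of mouse 1, 5 of 10 pairs (with at least 10 cells for each gene there) stood above the product and the highest ratio was 2.43, for Lcn2 with Lbp. The ratios among Nr2f2/Vwf cells were lower than those over all endothelium, but they had less room to rise. In mouse 1, Lrg1 was found in 40 and Lcn2 in 21 of the 97 cells, against 68 and 45 of 875 endothelial cells. With such shares, ratios of 7.15 to 8.93 could not be reached among the 97 cells, even with complete overlap. Whether the Nr2f2/Vwf gate accounts for the shared cells was thus not tested. The counts of pairs have no test, because cells of 1 library are not replicates. No share over pairs of all genes was counted in endothelium either.

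**Figure D4:**
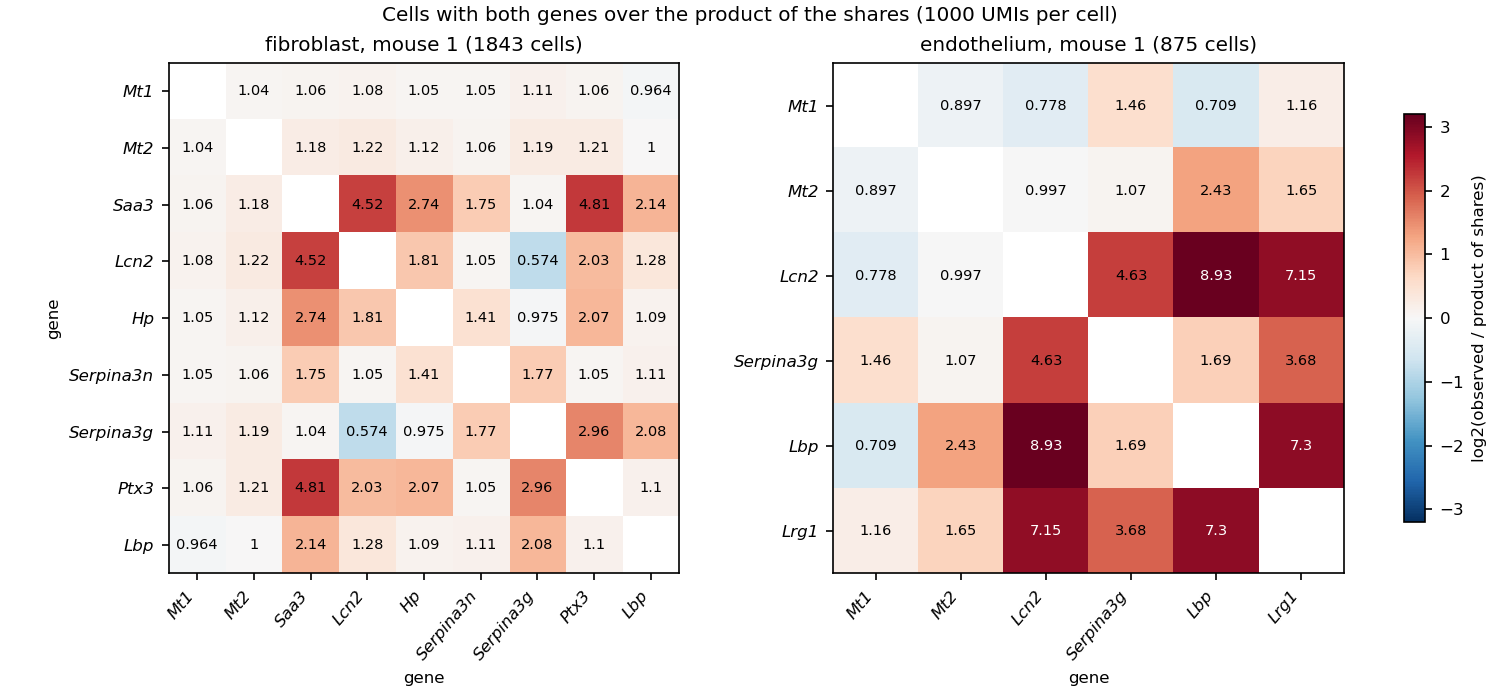
Number of cells with both genes divided by the number given by the product of the 2 shares, for pairs in fibroblasts (left) and endothelium (right) of mouse 1, with cells thinned to 1000 UMIs and colour on a log2 scale. Saa3 with Ptx3 (4.81) and Lcn2 (4.52) stand out in fibroblasts, and Lcn2, Lbp and Lrg1 with each other (7.15 to 8.93) in endothelium.

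The genes also differed between the 2 mice, which had no labelled difference. With 1 library per mouse, a difference between animals and one between libraries cannot be told apart, and no test was made. In fibroblasts mouse 1 exceeded mouse 2 by 23.2-fold for Mt2 (21.1 to 25.5), 12.8-fold for Mt1 (12.2 to 13.6), 8.81-fold for Serpina3g (5.13 to 16.4), 8.14-fold for Lcn2 (4.81 to 14.8), 7.69-fold for Hp (5.54 to 10.9), 7.42-fold for Saa3 (5.86 to 9.52), 5.33-fold for Serpina3n (4.56 to 6.25) and 4.98-fold for Ptx3 (3.84 to 6.55). Lbp stood apart, at 1.38-fold (1.17 to 1.62). Of the 9 genes with at least 100 UMIs in 1 of the mice, 8 were at least 2-fold higher in mouse 1, where 2.46% of 5888 genes were, and 0 in mouse 2, where 0.985% were. Saa3, Lcn2, Hp, Serpina3g and Ptx3 reached 100 UMIs in mouse 1 alone, so their count follows in part from that minimum. Without the highest cell of each mouse, the ratio was 27.5 for Saa3, 16.5 for Lcn2 and 7.97 for Ptx3. The log2 ratio of Mt2, 4.53, was rank 3 among the 5888 genes and that of Mt1, 3.68, was rank 6, beside a median of -0.03 over all genes.

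In endothelium and macrophages, each gene with UMIs in both mice was also higher in mouse 1. In neutrophils, where mouse 2 had 2 cells, the ratio was 0.695 for Lcn2 (0.347 to 1.63) and 0.962 for Lrg1 (0.436 to 2.64). In endothelium the mouse 1 level was 14.3-fold higher for Mt2 (7.26 to 32.2), 7.60-fold for Serpina3g (4.82 to 12.5, and 17.3-fold without the highest cell), 6.03-fold for Lrg1 (4.64 to 7.94), 5.27-fold for Mt1, 4.86-fold for Lcn2 (3.51 to 6.86, and 7.86-fold with the gate thresholds doubled) and 2.02-fold for Lbp (1.43 to 2.86). Of these, 5 had at least 100 UMIs in 1 mouse (all but Lbp), and 5 of 5 were at least 2-fold higher in mouse 1, against 2.05% of 3217 genes, and 0 in mouse 2, against 0.466%. All 5 reached 100 UMIs in mouse 1 alone, so this count follows in large part from that minimum. With the gate thresholds doubled, 3 genes reached that minimum, and 3 of 3 were higher in mouse 1. In macrophages the ratio was 4.16-fold for Mt2 (3.75 to 4.62) and 2.09-fold for Mt1 (2.03 to 2.16), so 2 of 2 genes, against 1.87% of 6781 genes higher in mouse 1 and 0.767% in mouse 2. With cells of more than 1 gate kept, 4 of 4 macrophage genes were. The neutrophil count also differed (72 and 2), as did the neutrophil markers in each gate given above. The summed level of 5 cardiomyocyte markers was 248 and 107 CPM in fibroblasts, 598 and 205 CPM in endothelium and 484 and 194 CPM in macrophages, higher in mouse 1 each time. The part of neutrophil and cardiomyocyte RNA in these differences was not tested.

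Genes of related pathways were counted in the same way, and the genes named in this paragraph were chosen after their values were seen. A gene again needed at least 100 UMIs in 1 of the mice. Where genes reached this in mouse 1 alone, the counts follow in part from that minimum. In fibroblasts these included Bcl3 (229 and 36 UMIs), C4b (710 and 82), Slc39a14 (190 and 27) and Fgf2 (163 and 51). Stat3, Osmr, Socs3 and Cebpb reached it in both mice there. Of all genes counted, 2.46% in fibroblasts, 2.05% in endothelium and 1.87% in macrophages were at least 2-fold higher in mouse 1. The shares higher in mouse 2 were 0.985%, 0.466% and 0.767%. In fibroblasts 11 of 21 genes of interleukin-6, interleukin-1 and STAT3 signalling were at least 2-fold higher in mouse 1 and 0 in mouse 2. Among them were Stat3 itself, at 241 and 99.1 CPM, the oncostatin M receptor Osmr, at 116 and 45.7 CPM, the feedback inhibitor Socs3, at 157 and 73.6 CPM, and the transcription factor Cebpb, at 423 and 136 CPM. Of the other acute-phase genes, 3 of 5 were higher in mouse 1, with complement C3 at 1866 and 689 CPM, C4b at 135 and 24.8 CPM and Steap4 at 123 and 35.1 CPM. The paralog Serpina3f stood at 37.2 and 2.12 CPM, from 196 and 7 UMIs beside the 197 and 14 of Serpina3g. Glucocorticoid-induced genes counted 5 of 15, with Zbtb16 at 228 and 50.6 CPM and Fkbp5 at 115 and 50.6 CPM. The median log2 ratio of that list was 0.43. Some of its genes lay below 0, such as Dusp1 (-0.07), Sult1a1 (-0.43) and Angptl4 (-0.81). Of the metal-handling genes 1 of 14 was higher, the zinc importer Slc39a14, at 36.0 and 8.18 CPM, and of 13 receptors and partners 1 was, the growth factor gene Fgf2. In endothelium the signalling list counted 4 of 15, the glucocorticoid list 3 of 12, and the acute-phase, metal and receptor lists 0 of 1, 0 of 6 and 0 of 4. The 4 signalling genes there reached 100 UMIs in mouse 1 alone: Bcl3 (110 and 44), Il4ra (160 and 69), Osmr (169 and 82) and Relb (155 and 78). Their count thus follows in large part from that minimum. In macrophages the signalling list counted 5 of 22, with Il1b higher in mouse 2, the glucocorticoid list 5 of 13, the acute-phase list 2 of 5 (C3 and C4b), and the metal list 1 of 17 (Slc39a14), with the iron exporter Slc40a1 higher in mouse 2. The receptor and partner list counted 1 of 14 higher in mouse 1 (Fpr2) and 1 higher in mouse 2 (Mmp9).

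Partner genes of the 10 were compared between cell types with edgeR's quasi-likelihood test on counts summed per gate and mouse, with the mouse as a block. Genes were called at a log2 difference of at least 1 where the p, adjusted by Benjamini-Hochberg over all genes, was under 0.05. In fibroblasts against endothelium, 16.1% of 11679 genes were called higher in fibroblasts and 14.7% in endothelium. Of 8 other acute-phase genes tested, 6 were higher in fibroblasts and 0 in endothelium, with a median log2 difference of 3.86 beside 0.01 for all genes. The complement inhibitor gene Serping1 stood at 2647 and 2374.5 CPM against 30.4 and 23.8 CPM (log2 6.58 ± 0.18 SE, adjusted p = 1.6e-23). C3 differed by 6.14 ± 0.19 (adjusted p = 3e-22), and the copper carrier ceruloplasmin, Cp, by 2.71 ± 0.19, at 517 and 360 CPM against 90.5 and 49.0 CPM. Of 2 Serpina paralogs, Serpina3c was higher in fibroblasts (4.34 ± 0.52), and Serpina3f, at 37.2 and 2.12 CPM against 31.0 and 2.48 CPM, was not called (0.24 ± 0.34, adjusted p = 0.613).

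Signalling genes did not lean to one side in that comparison. Of 26 genes of the interleukin-6, interleukin-1 and STAT3 list, 4 were higher in fibroblasts and 2 in endothelium, with a median of 0.15. The receptor genes Il6ra (2.81 ± 0.26) and Il11ra1 (2.76 ± 0.17) and the transcription factor Cebpb (2.82 ± 0.18) were higher in fibroblasts, and the NF-kappaB inhibitor Nfkbia (-1.53 ± 0.14) was higher in endothelium. Of 23 zinc and metal genes 5 were higher in fibroblasts, the zinc importer Slc39a1 among them (1.02 ± 0.17), and 3 in endothelium, among them the copper chaperone Atox1 (-1.04 ± 0.13). With the gate thresholds doubled, Slc39a1 (0.96) and Atox1 (-0.97) fell just short of the log2 minimum. The metal list had a median of 0.02, beside fibroblast levels of Mt1 that were 43.9 and 18.0 times those of endothelium. Of 16 glucocorticoid-induced genes 4 and 5 were called, with Errfi1 at 3.36 ± 0.25 and the kinase gene Sgk1 at -3.65 ± 0.16. Of 18 receptors and partners of the proteins, 8 were higher in fibroblasts and 2 in endothelium. Tnfaip6, whose product binds pentraxin 3 in matrix, stood at 152 and 87.2 CPM against 2.53 and 2.97 CPM (5.39 ± 0.30), and Lrp1, a receptor for protease and inhibitor complexes, differed by 5.80 ± 0.22. Scarb1, a lipoprotein receptor that binds serum amyloid A, was higher in endothelium (-5.94 ± 0.31).

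Against macrophages, where 20% of genes were called higher in fibroblasts and 17.8% in macrophages, the counts were 5 and 3 of 8 acute-phase genes, 2 and 0 of 2 paralogs, 5 and 8 of 26 signalling genes, 4 and 7 of 23 metal genes, 6 and 3 of 16 glucocorticoid genes and 5 and 9 of 18 receptors and partners. The interleukin-1 receptor Il1r1 (5.78 ± 0.32) and the shared interleukin-6 family receptor Il6st (2.13 ± 0.17) were higher in fibroblasts, and Lifr was higher in macrophages (-1.97 ± 0.18). Macrophages were higher in the metal transporter Slc11a1 (-6.20 ± 0.24), in Cd163, the receptor that takes up haptoglobin bound to haemoglobin (15.5 and 9.39 CPM against 473 and 460.1 CPM, -5.55 ± 0.20), and in Cd14, the receptor that Lbp serves (25 and 18.8 CPM against 1037 and 631 CPM, -5.60 ± 0.17). The genes for Hp and Lbp were thus higher in fibroblasts, and those for their macrophage receptors in macrophages. Endothelium against macrophages (17.0% and 16.3% of genes called) gave 0 and 2 of 8, 1 and 0 of 2, 4 and 8 of 26, 3 and 3 of 23, 8 and 3 of 16, and 4 and 11 of 18 for the same lists in the same order. Endothelium was higher in the TGF-beta co-receptor Eng (4.32 ± 0.16), which binds the product of Lrg1, and in Sgk1 (3.68 ± 0.16), and lower in Il6ra (-4.19 ± 0.24) and Cebpb (-3.97 ± 0.18). The adjusted p of each gene named as higher or lower in these comparisons, from edgeR, was at most 8.6e-06.

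Within endothelium, 3.76% of 7573 genes were called higher in Nr2f2/Vwf cells and 2.38% in the rest. Of 22 signalling genes 5 were higher in Nr2f2/Vwf cells (Il6st and Osmr and, named after their values were seen, Lifr, Nfkbiz and Cebpb) and 0 in the rest. Il6st stood at 345 and 208 CPM against 88.7 and 51.9 CPM (log2 1.90 ± 0.22, edgeR adjusted p = 1.1e-06) and Osmr at 230 and 77.3 CPM against 90.8 and 37.3 CPM (1.17 ± 0.26, adjusted p = 0.0046). Cp was higher (2.96 ± 0.25, adjusted p = 5.8e-09), at 466 and 196 CPM against 41.5 and 35.7 CPM, the only call among 3 acute-phase genes, and so was the TGF-beta receptor Tgfbr2 (1.53 ± 0.32, adjusted p = 0.0021). Cp and Il6st were called by DESeq2 and without the mouse block too, whereas Osmr was not called by DESeq2 (adjusted p = 0.461) or without the block (adjusted p = 0.397), nor Tgfbr2 by DESeq2 (adjusted p = 0.25). The other calls were 1 and 0 of 1 paralog (Serpina3f, at 115 and 11.9 CPM against 20 and 1.62 CPM), 0 and 1 of 14 glucocorticoid genes, and 1 and 1 of 10 receptors and partners. None of 18 metal genes was called in either direction. In Npr3/Cytl1 cells, with 3.60% and 4.11% of 8029 genes called and a median of all genes of -0.14, Cp (2.62 ± 0.30), Il6st (2.18 ± 0.28), Lifr (1.48 ± 0.45) and Osmr (1.13 ± 0.38) were again higher, from cells mostly shared with the Nr2f2/Vwf gate. Cp and Il6st were called under every alternative run, while DESeq2 called neither Lifr (adjusted p = 0.573) nor Osmr (adjusted p = 0.712). The counts there were 1 and 0 of 5 acute-phase, 0 and 0 of 1 paralog, 3 and 0 of 22 signalling, 0 and 0 of 19 metal, 1 and 4 of 15 glucocorticoid, and 1 and 1 of 12 receptor genes.

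Pi16-high against other fibroblasts gave few calls, 1.08% and 1.22% of 9703 genes. No signalling gene of 23 was called, and the calls were 0 and 1 of 6 acute-phase genes, 0 and 1 of 2 paralogs, 0 and 2 of 23 metal genes, 0 and 2 of 16 glucocorticoid genes and 1 and 0 of 16 receptors and partners. All were outside the rule for naming and are named after their values were seen: C4b (-1.13 ± 0.12), Serpina3f (-1.40 ± 0.22), the metal transporters Slc40a1 (-1.27 ± 0.33) and Slc39a8 (-2.99 ± 0.55), Sult1a1 (-1.04 ± 0.22) and Arrdc2 (-1.36 ± 0.36) were lower in Pi16-high cells, and Fgf2 was higher (1.03 ± 0.23). DESeq2 called only C4b of these. Serpina3f, at 23.3 and 0.620 CPM against 59.8 and 3.56 CPM, was close to Serpina3g in mouse 1. The 3 comparisons within a gate rest on 1 residual degree of freedom, and many of their calls were lost with another tool or without the mouse block: without the block, Pi16 gave 0 partner calls and the Nr2f2/Vwf cells 3 rather than 8.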

How the data were processed

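The authors deposited gene by cell count tables of UMIs, 1 per mouse, from 10x 3' libraries (kit version 2, per the labels). Cell Ranger 2.2.0, FastQC and the build mm10 are named in the submitters' processing notes. Cells with under 500 UMIs, under 300 genes or over 10% mitochondrial UMIs were left out here (719 and 432), as were Scrublet doublets (405 and 248, scanpy 1.11.5). The median of 2542.5 and 2194 UMIs per cell limits what a single cell can show. Levels are CPM of summed cells, with exact 95% intervals and a floor of 3 UMIs. Partner lists (other acute-phase proteins, Serpina paralogs, interleukin-6, interleukin-1 and STAT3 signalling, metal handling, glucocorticoid-induced genes, receptors and partners) were tested with edgeR 4.0.16 on sums per gate and mouse. The mouse was a block, since all gates come from the same 2 animals. The block takes up the difference in level between the mice. For comparisons between cell types, the fibroblast, endothelium, mural and macrophage sums of both mice entered 1 fit. Their p-values thus set a difference against the spread left over all these sums, the small mural gate included, with information shared over genes. The comparisons within a gate left 1 residual degree of freedom. Their p-values rest mainly on the spread shared over genes, and little on how the difference of that gene varied between the 2 mice. On simulated counts for fibroblasts against endothelium (11298 genes), 50 of 50 genes were recovered at a log2 change of 2. Apart from the changed genes, these counts had the same means in all gates and mice, with a fixed spread. They were thus simpler than the data, and the comparisons within a gate were not simulated. The genes named were all 10 members and, per list and comparison, up to 4 called genes with the largest change, given 50 CPM or more in the higher gate of both mice. The members, gates and lists were chosen with earlier results of these data known. Alternatives were DESeq2 1.42.0, other size factors, no count filter, no block, 1 mouse alone, other cell filters, doubled gates and other depths.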

Additional observations from a re-analysis of the deposited data

How the results depend on the processing

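Of the summary counts under the alternatives, 136 stayed within 1.5 times their main value and 21 did not. Of the values of single genes and pairs, 238 stayed within the limit set for their kind, 12 moved beyond it, and 5 reversed. The limit was the counting interval for ratios and 1.5-fold for the 38 co-detection values. For the 96 CPM values it was the standard deviation between the 2 mice. That limit is wide: for Mt1 in fibroblasts it was 3512 CPM beside a mean of 2903 CPM. The 5 reversed values were ratios of Pi16-high over other fibroblasts without the highest cell of the gene: in mouse 2 Saa3 (0.0582), Lcn2 (0.419), Ptx3 (1.37) and Mt1 (1.00), and in mouse 1 Lrg1 (0.820). The counts of partner genes called between fibroblasts, endothelium and macrophages all stayed within 1.5 times. Between mice, doubled gate thresholds left 3 endothelial members at least 2-fold higher in mouse 1 (5 in the main analysis), and keeping cells of several gates gave 4 in macrophages (2). Co-detected endothelial pairs of mouse 1 above the product numbered 5 at 2000 UMIs per cell and 19 with no thinning (11), because the number of pairs with enough cells changes. Without the replicate block, which pairs the gates of 1 mouse, partner calls fell to 0 and 0 for Pi16-high and other fibroblasts (1 and 6), to 3 for Nr2f2/Vwf cells (8), and to 3 and 2 for Npr3/Cytl1 cells and the rest (6 and 5). DESeq2 gave 0 and 1, then 2 and 0, then 3 and 3 in the same comparisons. The count for Pi16-high cells was 0 with all barcodes and 0 with doubled gates, that for the endothelium outside Nr2f2/Vwf was 4 with doubled gates (2), and that outside Npr3/Cytl1 was 8 with cells of several gates kept (5). Over all genes, Pi16-high and other fibroblasts gave 105 and 118 calls, 4 and 6 without the block and 47 and 29 with DESeq2. Nr2f2/Vwf cells and the rest gave 285 and 180, then 129 and 55, then 104 and 48, and Npr3/Cytl1 cells and the rest 289 and 330, then 145 and 108, then 128 and 85. With 1 mouse left out there is no test: of the called partner genes, those still at least 2-fold apart in the other mouse numbered 0 to 1 for Pi16-high and 5 to 5 for other fibroblasts, 6 to 7 for Nr2f2/Vwf and 1 to 2 for the rest, and 5 to 6 for Npr3/Cytl1 and 4 to 5 for the rest. Depth limits the neutrophil values most (medians of 1111 and 1002 UMIs per cell), then the endothelial and mural values (1293.5 to 1462.5). Leaving out the highest cell of a gene, and leaving out fibroblasts with mesothelium markers, were chosen after seeing the data.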

Other observations

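Cells in none of the gates held 309 UMIs of Hp in mouse 1, from 64 of 499 cells, and 4 UMIs in mouse 2, from 3 of 580 cells. Among the 64 cells of mouse 1 with Hp, 90.6% had a UMI of Plac8, 85.9% of Ccr2, 81.2% of Ly6c2 and 64.1% of Chil3, genes that mark monocytes which enter tissue from the blood. Among the 435 cells without Hp the shares were 8.74%, 17.9%, 7.13% and 1.38%. The neutrophil genes S100a8 and S100a9 had a UMI in 34.4% and 10.9% of the cells with Hp. These cells were chosen for Hp after its level had been seen, and no test was made.

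Serpina3g in cells of no gate was found in 60 cells of mouse 1 (12.0%) and 36 of mouse 2 (6.21%), and the ratio between the mice there was 1.84 on the CPM scale.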
